A study of Mus musculus with 24 samples.

Results

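The colon of mice with an epithelial deletion of Axin1 (KO) was profiled 13 days into a dextran sulfate sodium (DSS) experiment and set against the colon of untreated KO mice, to measure how fully the tissue had returned to its untreated state. The labels placed 3 libraries at day 13 and 3 in the untreated group, so 6 of the 24 libraries of the series are described here. Every animal of both groups was C57BL/6 and carried the KO genotype, which the study's design describes as a knockout restricted to intestinal epithelial cells, so all other cell types of the colon kept the gene. The day 13 mice had DSS-induced colitis according to the labels and the untreated mice drank water. Another 3 KO libraries from day 7 of DSS and 9 wild-type (WT) libraries, 3 each from untreated, day 7 and day 13 colon, served only for comparison and shared the fit. The labels give neither age, sex, the amount of DSS, the days on which it was given, nor the promoter that drove the deletion. The design states biological replicates.

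DSS in the drinking water injures the colonic epithelium, and when it is withdrawn the crypts divide, close the wound and rebuild the layer of absorptive and mucus-secreting cells while inflammatory cells leave. Axin1 holds together the proteins that send beta-catenin to degradation and so restrains Wnt signalling, the pathway that keeps crypt stem cells dividing. Its relative Axin2 is itself a Wnt target and can take the same place in that complex.

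Libraries held 22862866 to 27673495 expected counts at day 13 and 25526663 to 28066996 in untreated KO colon. Axin1 (chr17:26138688-26195811, GRCm38) was at 17.1, 14.7 and 12.9 CPM (the count of a gene scaled to a common library size) at day 13, against 17.95, 16.8 and 14.5 CPM in untreated KO colon, which was 29.2% and 32.6% of the WT mean under the same condition. The 2 KO groups overlapped (exact two-sided permutation test, p = 0.5; log2 change -0.14 ± 0.11, 95% interval -0.38 to 0.10), while each KO group lay below its WT group (exact p = 0.1, the smallest 3 against 3 allows). The colonocyte and goblet cell genes Car1 and Muc2 were present in quantity in all 6 libraries.

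Untreated KO replicate 3 stood apart from the other untreated libraries. It had 425 genes at least 4-fold above and 325 at least 4-fold below both others, while the other 5 libraries had 14 to 92 such genes in a direction. Hoxb13, a Hox gene of the posterior gut, was at 557, 445 and 390.0 CPM at day 13, against 550.5, 539 and 2.51 CPM in untreated KO replicates 1, 2 and 3. Car1 was at 1465, 1513 and 1249 CPM at day 13, against 1464, 1519 and 11443 CPM untreated. Values without it stand beside the results that rest on it most. KO day 13 replicate 1 alone held keratins of squamous epithelium, with Krt14 at 390.1, 1.15 and 1.12 CPM at day 13, against 0.900, 0.817 and 0.380 CPM untreated. All 3 day 13 libraries had Xist at 568, 1068 and 909 CPM and at most 0.0465 CPM of the Y-linked Ddx3y, whereas the untreated libraries had 36.2, 31.0 and 31.7 CPM of Ddx3y and at most 0.313 CPM of Xist. Day 13 and sex therefore cannot be told apart in the 6 libraries. Ddx3y was also high in 1 of the 3 KO day 7 libraries, in 2 of the 3 untreated WT libraries, in 0 of the 3 WT day 7 libraries and in all 3 WT day 13 libraries.

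Few genes were called between KO colon at day 13 and untreated KO colon, and a gene that was not called could still differ widely. Of the list of Y-linked genes and Xist, 0 of 5 passed, with a median log2 change of -11.1. Without overlap of the libraries, 4 of them were lower (8.05% of all genes) and 1 was higher (7.99%). DESeq2 called 4 of these genes lower and 1 higher. Of 18102 genes tested, 5 passed an adjusted p of 0.05 (0.0276%), 4 higher (0.0221%) and 1 lower (0.00552%) at day 13 (edgeR quasi-likelihood test, Benjamini-Hochberg adjustment). At day 7 the same fit called 2288 genes (12.6%), 1552 higher (8.57%) and 736 lower (4.07%) than in the same untreated libraries, and between day 13 and day 7 it called 2321 (12.8%), 763 higher (4.22%) and 1558 lower (8.61%) at day 13. The median size of a change was 0.19 on the log2 scale at day 13 and 0.33 at day 7, and the medians with their signs were -0.01 and -0.04. Counting genes with a change of at least 2-fold gave 1230 at day 13 and 2295 at day 7. For 10737 genes (59.3%) the 95% interval of the day 13 change lay wholly within 2-fold in either direction, so for the remaining genes a 2-fold difference was not outside the precision of 3 against 3 libraries.

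**Figure D1:**
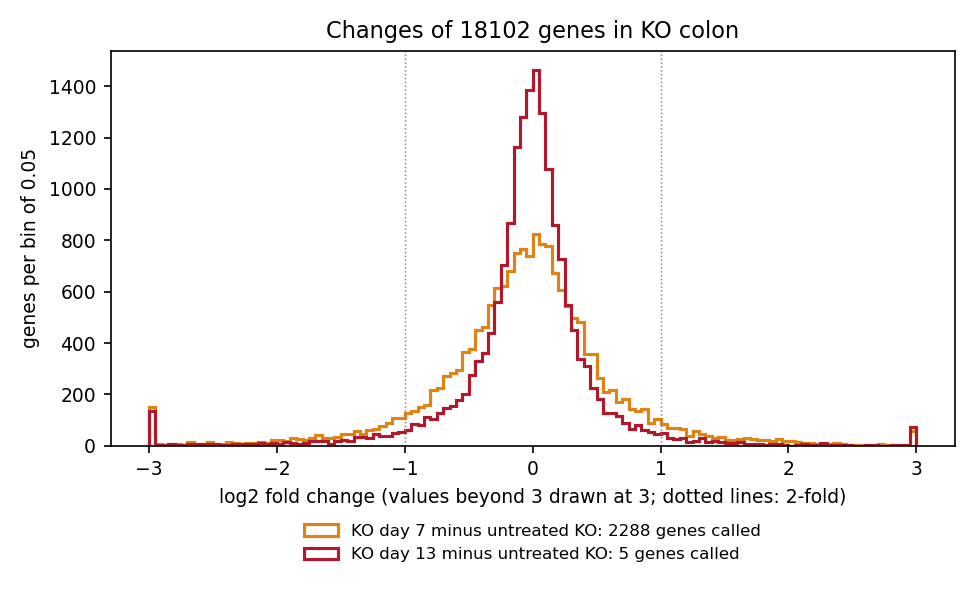
Histogram of log2 fold changes of 18102 genes in KO colon, day 7 minus untreated (orange) and day 13 minus untreated (red), with both contrasts using the same 3 untreated libraries; the vertical axis is the number of genes per bin of 0.05. The day 13 changes are more tightly gathered around 0, with 5 genes called against 2288 at day 7.

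How many genes passed depended on the libraries and the tool. Leaving out 1 library gave 4 calls without day 13 replicate 1, 0 without day 13 replicate 2, 0 without day 13 replicate 3, and 1 each without untreated replicate 1, 2 or 3. In the 2 fits with 0 calls, 1154 and 1248 genes had an unadjusted p under 0.05, against 1380 with all libraries (7.62% of genes, 3.57% higher and 4.05% lower). DESeq2 called 121 genes, 48 higher and 73 lower. With a covariate for Y-linked expression, which differed within 2 of the 6 colon groups, edgeR called 0 genes and 877 had an unadjusted p under 0.05. The day 7 count was 1426 without untreated replicate 1, and the count between day 13 and day 7 was 1358 and 1436 without day 13 replicates 1 and 2. Distances between libraries need no threshold. The median absolute log2 difference between a day 13 library and untreated replicate 1 or 2 was 0.207 to 0.287. Between day 13 libraries it was 0.180 to 0.255. Between untreated replicates 1 and 2 it was 0.154, below the distance from either to any day 13 library. Between day 7 libraries and untreated replicate 1 or 2 it was 0.336 to 0.402. Untreated replicate 3 was 0.327 and 0.362 from its own group, farther than any day 13 library was from untreated replicates 1 and 2.

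The gene that fell was Igkv19-93 (chr6:68736297-68736780), a variable gene of the immunoglobulin kappa chain. It was at 0.0465, 0.221 and 0.261 CPM at day 13, against 7.94, 4.26 and 7.22 CPM in untreated KO colon. All 3 day 13 libraries lay below all 3 untreated ones, with a log2 fold change of -5.13 ± 0.62 (SE; adjusted p = 0.0101). It was already low at day 7, at 0.324, 0.244 and 0.0926 CPM (adjusted p = 0.000238 against untreated), and the day 13 change passed without untreated replicate 3 (-5.05 ± 0.65, adjusted p = 0.0290). The V exon (chr6:68736297-68736591, GRCm38, minus strand, GENCODE M21) is printed because reads of V genes can be shared within the family. Capitals mark the 62 of 295 bases unlike the nearest of 217 other V genes, Igkv10-94, to which it is 79.0% identical, and the longest run without a difference is 19 bases.
Igkv19-93: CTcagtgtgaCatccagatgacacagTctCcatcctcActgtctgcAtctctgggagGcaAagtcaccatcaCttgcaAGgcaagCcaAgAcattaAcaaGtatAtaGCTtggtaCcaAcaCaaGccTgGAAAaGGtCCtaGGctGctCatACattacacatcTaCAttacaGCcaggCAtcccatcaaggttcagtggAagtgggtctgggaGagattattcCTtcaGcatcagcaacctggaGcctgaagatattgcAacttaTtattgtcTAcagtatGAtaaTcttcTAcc

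Rdh9 (chr10:127776386-127792697), of the retinol dehydrogenase family, was at 116, 107 and 96.4 CPM at day 13, against 33.8, 20.9 and 28.6 CPM in untreated KO colon. The groups were far apart, and Rdh9 rose by 1.94 ± 0.28 on the log2 scale (adjusted p = 0.0327). At day 7 it stood between them at 62.7, 61.6 and 50.3 CPM, higher than untreated (adjusted p = 0.0204) and lower than day 13 (adjusted p = 0.0494). Adora1 (chr1:134199223-134235431), the adenosine A1 receptor, was at 17.3, 10.1 and 13.8 CPM at day 13, against 1.88, 0.924 and 1.60 CPM untreated. It rose by 3.23 ± 0.49 (adjusted p = 0.0327) and had also been higher at day 7, by 1.96 ± 0.47 (adjusted p = 0.0135). Neither group of libraries overlapped the other for either gene. Without untreated replicate 3 the log2 changes were 1.95 ± 0.34 for Rdh9 and 3.29 ± 0.58 for Adora1, and the adjusted p-values were 0.103 and 0.114, which did not pass.

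The other 2 genes that rose are annotated as pseudogenes, which lie outside the rule for named genes, so they were picked with their values in view. Gm7887, a processed pseudogene (chr6:48524554-48525090), was at 3.58, 4.28 and 4.14 CPM at day 13, against 0.665, 0.959 and 0.836 CPM untreated, a log2 change of 2.28 ± 0.32 (adjusted p = 0.0287; 0.103 without untreated replicate 3). Reads of a processed pseudogene can come from its parent gene, so its level is uncertain. Zfp264, a transcribed pseudogene of the zinc finger family (chr7:6977246-6991087), had 155 counts over the 3 day 13 libraries, at 2.61, 1.46 and 2.46 CPM, and 0 counts in all 3 untreated and all 3 day 7 KO libraries. Against a floor of 3 counts over the untreated group it was at least 58.3-fold higher at day 13 (adjusted p = 0.0327; 0.103 without untreated replicate 3).

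**Figure D2:**
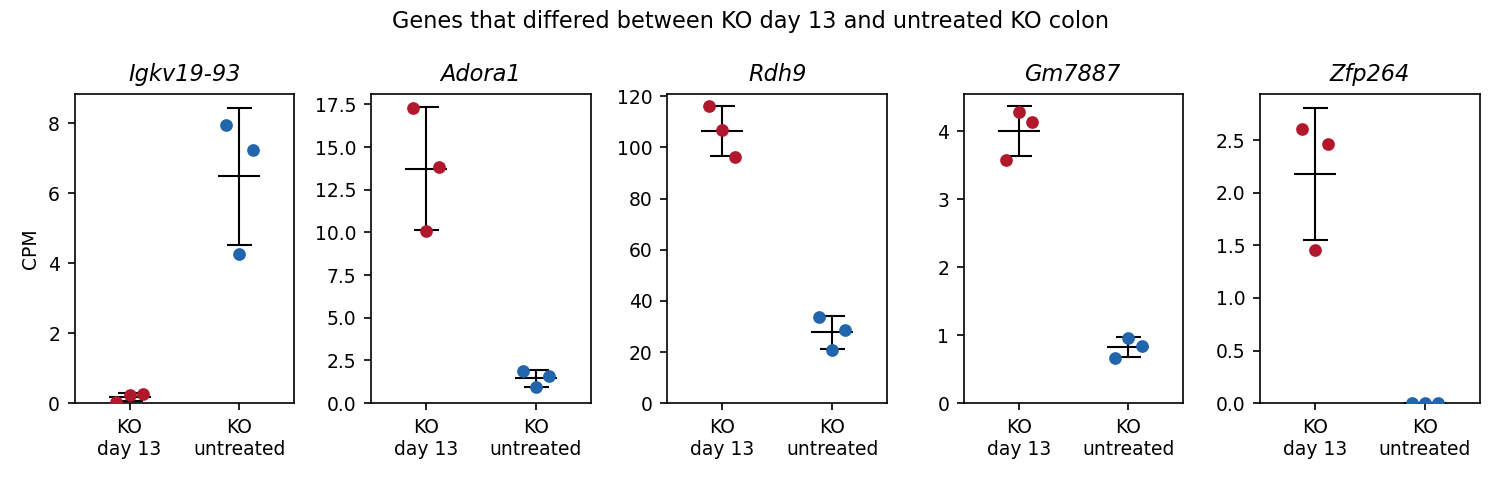
CPM of the 5 called genes in each library, KO day 13 (red) to the left of untreated KO (blue), with the mean and SD of 3 libraries in black. The groups do not overlap for any of the 5 genes.

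Below the threshold, the genes with the smallest p that were higher at day 13 included Apoc2, a cofactor of lipoprotein lipase, Steap4, a metalloreductase, Gadd45b, a stress-response gene, Gda, guanine deaminase and Slco2a1, a prostaglandin transporter. Apoc2 was at 89.9, 26.7 and 41.0 CPM at day 13, against 8.96, 7.57 and 2.51 CPM untreated (3.05 ± 0.51, adjusted p = 0.0646), and Steap4 at 129, 35.2 and 66.7 CPM, against 5.20, 5.68 and 14.6 CPM (3.18 ± 0.56, 0.106). Gadd45b was at 32.4, 26.5 and 26.3 CPM, against 11.7, 16.4 and 13.6 CPM (adjusted p = 0.107). None of these groups overlapped. Gda had 430.3, 299.5 and 344 CPM at day 13, against 125, 82.3 and 144 CPM untreated, and was also higher than untreated at day 7 (347, 233 and 299.5 CPM, adjusted p = 0.00884 against untreated). Slco2a1 had 203, 178 and 198 CPM at day 13, against 119, 106 and 90.0 CPM untreated, but was higher at day 13 than at day 7 (adjusted p = 0.00102), where it was at 91.8, 115 and 79.2 CPM. Igsf23, Gna14 and B3gnt3 completed the list of higher genes, with adjusted p of 0.108 each. On the lower side, 6 of the next 9 genes by p, none of which passed, were immunoglobulin V genes, and the others were Ccdc61, Isoc1 and Fcrls, an Fc receptor-like gene. Fcrls was at 0.372, 0.838 and 0.485 CPM at day 13, against 2.78, 2.77 and 1.79 CPM untreated (-2.10 ± 0.43, adjusted p = 0.141).

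Antibody transcripts were lower at day 13 as a class. Plasma cells of the gut wall make IgA, carried across the epithelium as a polymer held by the J chain. The class was examined after these values were seen and has no test of its own. Of 348 immunoglobulin V genes listed, 219 had a count and 106 were tested; all 106 were lower at day 13, 61 without overlap of the groups (8.05% of all genes were lower without overlap), with a median log2 change of -3.22, and 1 passed. The filter on low counts used all 18 colon libraries, so V genes with very few counts in nearly all of them could not be tested. A high level in untreated KO colon alone can satisfy that filter, which the 106 passed. The sum over the 348 genes was 8.33, 24.9 and 41.8 CPM at day 13, against 368, 90.1 and 262 CPM untreated. At day 7 it was 82.2, 41.6 and 10.5 CPM. Every day 13 library was below every untreated library, and the spread within each group was several-fold. Counting V genes with at least 1 CPM gave 2, 2 and 12 at day 13, against 73, 29 and 65 untreated.

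Of the other antibody genes, Igha, Igkc and Jchain were low in the same libraries and Ighm was not. Igha, the IgA heavy chain, was at 40.5, 77.6 and 175 CPM at day 13, against 907, 228 and 719 CPM untreated (-2.66 ± 0.80, adjusted p = 0.410). Jchain was at 7.54, 25.5 and 46.7 CPM, against 255, 66.3 and 198 CPM untreated (-2.70 ± 0.81, adjusted p = 0.410). Neither passed, and neither overlapped. Ighm, the IgM heavy chain, was at 7.21, 21.5 and 19.6 CPM at day 13, against 10.9, 28.2 and 5.06 CPM untreated, and overlapped. Of the 15 genes of the B and plasma cell list, 0 passed, and the median change was 0.18 with all libraries and -0.23 without untreated replicate 3. It was 1.32 without untreated replicate 2 and 0.57 without day 13 replicate 1. The 4 members lower without overlap (8.05% of all genes) were Igha, Jchain, Mzb1 and Tnfrsf17, all of plasma cells. The other members overlapped, Xbp1 and the B cell gene Ms4a1 among them. With all libraries, 10 of the 15 had a positive log2 change and 0 were higher without overlap (7.99% of all genes). Mzb1, which helps assemble antibodies, was at 0.419, 1.90 and 1.57 CPM at day 13, against 4.38, 2.06 and 3.27 CPM untreated. In whole tissue, fewer cells of a type and less RNA per cell cannot be told apart. Near-identical V genes share reads, so single V genes are less certain than the sum.

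**Figure D3:**
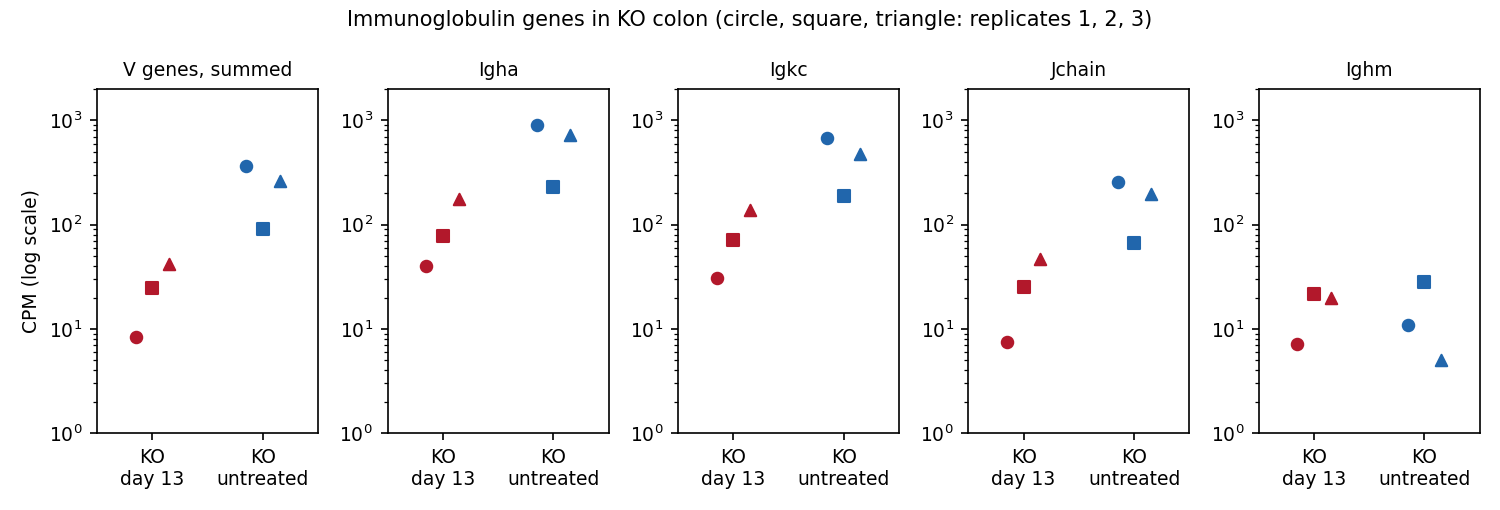
Summed CPM of 348 immunoglobulin V genes and CPM of Igha, Igkc, Jchain and Ighm in each library on a log axis, KO day 13 (red) left of untreated KO (blue). The V sum, Igha, Igkc and Jchain lie lower in all 3 day 13 libraries, and Ighm overlaps.

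Macrophage genes lay low at day 13. In the list of 16 markers of monocytes and macrophages, 15 had a negative log2 change, 10 were lower without overlap of the libraries (8.05% of all genes) and 1 higher (7.99%), 0 passed, and the median was -0.89, against -0.01 over all genes. Summed over the list, the level was 126, 190.4 and 172 CPM at day 13, against 251, 261 and 149.8 CPM untreated. Without untreated replicate 3, whose sum was the lowest of its group, 14 members were lower without overlap (17.98% of all genes) and the median was -1.11. Adgre1, which encodes the macrophage marker F4/80, was at 0.884, 1.94 and 0.746 CPM at day 13, against 4.15, 3.09 and 3.16 CPM untreated (-1.54 ± 0.36, adjusted p = 0.223). Cx3cr1, the fractalkine receptor of resident macrophages, was at 0.884, 2.43 and 1.83 CPM, against 5.87, 6.57 and 4.49 CPM (-1.71 ± 0.41, adjusted p = 0.268). The exception was Cd14, the lipopolysaccharide co-receptor, at 54.1, 51.2 and 58.7 CPM at day 13, against 33.1, 27.8 and 21.5 CPM untreated (0.99 ± 0.23, adjusted p = 0.223). These groups did not overlap for any of the 3 genes, and no other marker was higher.

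Lists of other cells of the wall had small or uneven differences. T cell genes had a median of -0.38 (0 of 16 passed), fibroblast and matrix genes -0.40 (0 of 16), endothelial genes -0.27 (0 of 14) and smooth muscle genes 0.16 (0 of 13). Pdgfra, a receptor of intestinal fibroblasts, was at 20.8, 25.5 and 18.1 CPM at day 13, against 32.7, 42.3 and 36.7 CPM untreated (-0.79 ± 0.34, adjusted p = 0.589). These groups did not overlap. Neutrophil markers had a median of 1.34 (0 of 13 passed), and 0.64 without day 13 replicate 1. S100a8, a calcium-binding protein of neutrophils, was at 3.12, 0.221 and 0.0373 CPM at day 13, against 0.0391, 0 and 0.0760 CPM untreated. Ly6g was at 242, 177 and 191 CPM, against 127, 110.0 and 4.41 CPM untreated. Ly6g made up most of the summed list, which was 257, 179 and 192 CPM at day 13, against 129, 111 and 6.99 CPM untreated. With S100a8 so low in the same libraries, the Ly6g level cannot be read as a measure of neutrophils. Untreated replicate 3 was the lowest library for Ly6g, and without it the log2 change was 0.77 ± 0.18 (adjusted p = 0.226). Squamous epithelial genes had a median of 3.30 with all libraries and 0.07 without day 13 replicate 1.

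Genes that differed between DSS day 7 and untreated WT colon had medians near 0 in KO colon at day 13. They were defined in WT alone, as genes that passed at day 7 with a change of at least 2-fold, which gave 744 higher (4.11% of genes tested) and 559 lower (3.09%), among 2949 that passed at any size (16.3%). Of the 744, 2 were called higher in KO at day 13 (0.0221% of all genes) and the median log2 change of the 744 was -0.02. In KO at day 7 it was 0.69, when 209 were called higher (8.57% of all genes). Of the 559, 1 was called lower at day 13 (0.00552% of all genes) and the median was 0.04. At day 7 it was -0.68, when 121 were called lower (4.07% of all genes). The 2 KO contrasts share the untreated libraries. For 215 of the 744 and 228 of the 559, the 95% interval at day 13 lay within 2-fold, against 59.3% of all genes. For most genes of either set a 2-fold difference from untreated was thus not outside the interval. Redefined and refitted without untreated KO replicate 3, the medians were 0.12 for 886 higher genes and -0.14 for 663 lower genes. Each had the sign of the WT change. Sex was unbalanced in the WT contrast as well, with Ddx3y at 33.4, 27.4 and 0 CPM in untreated WT and at most 0.0591 CPM in WT day 7. With the covariate for Y-linked expression, 279 genes were defined as higher and 197 as lower. Their medians were 0.17 and -0.051, again with the sign of the WT change. The part of sex in these medians was not tested further.

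Cell cycle genes were high at day 7, and their level at day 13 relative to untreated turned on the untreated libraries. Over 22 genes the summed level was 353, 408 and 872 CPM in untreated KO colon, 2059, 1826 and 1370.5 CPM at day 7 and 473, 720.1 and 582 CPM at day 13. At day 7, 16 of these genes rose (8.57% of all genes). At day 13, 0 passed with a median of 0.14, and 13 were lower than at day 7 (8.61% of all genes). Without untreated replicate 3, which was above every day 13 library, the median was 0.98. Then 14 of 22 genes were higher without overlap of the libraries (16.52% of all genes). Of the 22, 11 had an unadjusted p under 0.05 (1311 of all 18533 genes tested, in either direction) and 0 passed. Mki67, a marker of dividing cells named after its values were seen, was at 70.7, 176 and 99.4 CPM at day 13, against 30.8, 42.2 and 189 CPM untreated (0.40 ± 0.58, adjusted p = 0.934, and 1.65 ± 0.48, 0.308, without replicate 3). Cdk1, the mitotic kinase, was at 20.4, 28.4 and 16.9 CPM, against 6.34, 7.39 and 35.2 CPM. Untreated replicate 3 held the highest value of both genes and replicates 1 and 2 the lowest.

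The replication helicase genes overlapped between day 13 and untreated colon. Mcm6 was at 28.8, 28.8 and 53.9 CPM at day 13, against 48.5, 52.8 and 38.2 CPM untreated (-0.32 ± 0.23, 95% interval -0.81 to 0.16, adjusted p = 0.815). At day 7 it was at 160.5, 97.4 and 119 CPM and higher (adjusted p = 0.00115), and day 13 was lower than day 7 (adjusted p = 0.000257). Mcm2, Mcm3 and Mcm5 behaved alike, with day 13 log2 changes of -0.21 ± 0.20, -0.26 ± 0.22 and -0.26 ± 0.21, and with groups that overlapped. The promoter of Mcm6 (chr1:128359656-128359955, GRCm38.p6, minus strand, RefSeq, 250 bases before to 50 after the start) is printed as an example of a gene that was lower at day 13 than at day 7. Capitals mark 3 matches, counted on both strands, to the E2F spelling TTTNGCGC at 2 places, where 2 of the matches overlap on opposite strands. This spelling occurs in 1.38% of 32851 promoters of this length and in 4 of the 20 list members found in the table. Mcm6 holds the most matches of these members. Matches are letters, not evidence of binding.
Mcm6: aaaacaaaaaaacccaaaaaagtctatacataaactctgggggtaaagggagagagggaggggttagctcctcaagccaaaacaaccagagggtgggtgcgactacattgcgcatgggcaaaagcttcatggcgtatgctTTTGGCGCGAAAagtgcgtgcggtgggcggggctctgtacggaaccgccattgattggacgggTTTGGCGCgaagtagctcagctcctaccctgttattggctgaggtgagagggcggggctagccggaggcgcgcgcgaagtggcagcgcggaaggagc

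Ribosome biogenesis is another gene group that growing crypts draw on. Its 20 genes summed to 1107, 1166 and 1039 CPM untreated, 2198, 1883 and 2289 CPM at day 7 and 994, 1074 and 1334 CPM at day 13. At day 7, 19 rose (8.57% of all genes). At day 13, 0 of 20 passed, 18 were lower than at day 7 (8.61% of all genes), and the 95% intervals of all 20 lay within 2-fold of untreated, with a median of -0.05. Ddx21, a nucleolar helicase, was at 51.1, 54.6 and 72.2 CPM at day 13, against 70.7, 68.5 and 58.2 CPM untreated (95% interval -0.43 to 0.13). The groups overlapped. Myc, a driver of this programme and a Wnt target, was at 23.4, 23.7 and 35.0 CPM at day 13, against 20.7, 21.7 and 18.6 CPM untreated (0.43 ± 0.26, adjusted p = 0.761), and at 50.8, 36.3 and 83.0 CPM at day 7, where it rose (adjusted p = 0.00225).

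Cholesterol synthesis genes were high at day 7 and lay mostly below untreated at day 13. Over 19 genes the sum was 1991, 1676 and 3306 CPM untreated, 3755, 4170.4 and 4029 CPM at day 7 and 1443, 1470.0 and 1558 CPM at day 13. At day 13, 18 of 19 had a negative log2 change, 8 were lower without overlap (8.05% of all genes), 0 passed and the median was -0.58. Against day 7, 14 were lower (8.61% of all genes). Untreated replicate 3 was the highest untreated library, and without it the median was -0.19 and 9 genes were lower without overlap (17.98% of all genes). Hmgcs1, an enzyme early in the pathway, was at 168, 203 and 163 CPM at day 13, against 276, 229 and 544 CPM untreated. Its promoter (chr13:119690101-119690400, GRCm38.p6, plus strand, RefSeq) is shown. The gene follows the list, but it is the only member with a match among those whose promoter was available. Capitals mark 1 match to the sterol regulatory spelling TCACNCCAC, searched on both strands, which 1.24% of promoters hold and 1 of the 12 list members found in the table.
Hmgcs1: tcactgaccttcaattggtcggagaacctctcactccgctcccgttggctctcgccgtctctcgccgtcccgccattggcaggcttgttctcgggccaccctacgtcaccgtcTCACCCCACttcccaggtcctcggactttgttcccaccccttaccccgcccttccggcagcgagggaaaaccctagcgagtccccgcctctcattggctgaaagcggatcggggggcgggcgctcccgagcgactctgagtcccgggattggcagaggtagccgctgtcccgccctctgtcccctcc

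Clock genes lay above untreated at day 13 and below it at day 7. The core circadian clock list summed to 1275, 1343 and 1123 CPM untreated, 872, 964 and 752 CPM at day 7 and 1799, 1501 and 1542 CPM at day 13. All 18 members had a positive log2 change at day 13, 6 were higher without overlap (7.99% of all genes), 0 passed, and the median was 0.35. At day 7, 8 had fallen (4.07% of all genes) and 1 had risen (8.57%), and 9 were higher at day 13 than at day 7 (4.22%). The labels do not give the time of day at collection. Dbp, a clock output factor named after its values were seen, was at 155, 149 and 152 CPM at day 13, against 93.9, 119 and 87.6 CPM untreated (0.60 ± 0.60, adjusted p = 0.885), and at 21.7, 32.0 and 10.5 CPM at day 7, which was lower than untreated (adjusted p = 0.0321). Ciart, a repressor of the clock, was at 24.5, 22.3 and 22.6 CPM, against 12.6, 17.8 and 17.6 CPM. Neither of these genes overlapped between day 13 and untreated colon. The Ciart promoter (chr3:95882179-95882478, GRCm38.p6, minus strand, RefSeq) is printed from the list. It holds 3 E-boxes, spelled CACGTG and in capitals, more than any other list member found in the table. This spelling reads the same on both strands and occurs in 7.15% of promoters and in 5 of the 15 list members found.
Ciart: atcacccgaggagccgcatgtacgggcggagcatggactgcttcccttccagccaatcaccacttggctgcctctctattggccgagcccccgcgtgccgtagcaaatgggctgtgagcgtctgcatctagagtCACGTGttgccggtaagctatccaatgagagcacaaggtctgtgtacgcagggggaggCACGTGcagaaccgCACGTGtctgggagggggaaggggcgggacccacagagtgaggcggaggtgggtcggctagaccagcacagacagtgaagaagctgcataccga

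**Figure D4:**
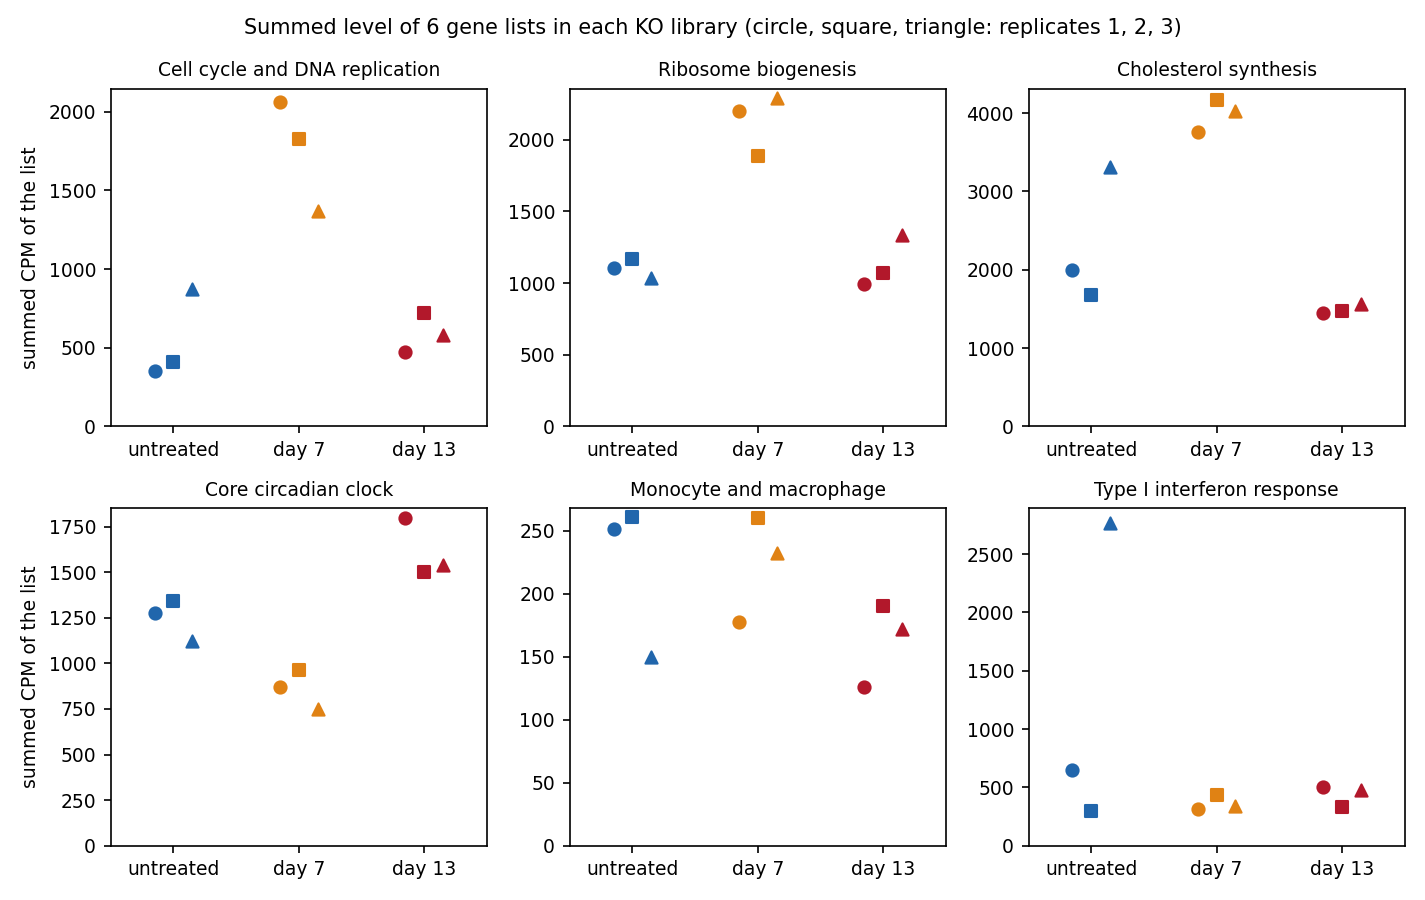
Summed CPM of 6 gene lists in each KO library, in the order untreated, day 7 and day 13, with circles, squares and triangles for replicates 1, 2 and 3. The ribosome sums at day 13 overlap those of untreated colon, the clock sums are highest at day 13, and the interferon sum in untreated replicate 3 exceeds that of the other 8 libraries.

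The negative median of the interferon genes rested on 1 library. All 18 type I interferon genes had a negative log2 change at day 13, with a median of -1.73. Of these, 13 had an unadjusted p under 0.05 (4.05% of all genes were lower at that p) and 0 passed. No member separated the groups without overlap. The sum was 507, 327 and 476 CPM at day 13, against 645, 297 and 2770.2 CPM untreated, and without untreated replicate 3 the median was -0.03. Isg15, the ubiquitin-like product of interferon signalling, was at 9.21, 5.65 and 8.10 CPM at day 13, against 13.1, 4.97 and 119.8 CPM untreated. Irf7, a transcription factor of the same response, was at 92.5, 50.8 and 84.1 CPM, against 118, 69.8 and 567 CPM. Replicates 1 and 2 of the untreated group overlapped the day 13 libraries for both. The Isg15 promoter (chr4:156200769-156201068, GRCm38.p6, minus strand, RefSeq) is printed from the list. It holds more matches to the spelling below than any other list member whose promoter was available. Capitals mark 3 overlapping matches to the interferon-stimulated spelling, in which GAAA is followed by any 2 bases and GAAA again, searched on both strands, which 3.44% of promoters hold and 6 of the 11 list members found in the table.
Isg15: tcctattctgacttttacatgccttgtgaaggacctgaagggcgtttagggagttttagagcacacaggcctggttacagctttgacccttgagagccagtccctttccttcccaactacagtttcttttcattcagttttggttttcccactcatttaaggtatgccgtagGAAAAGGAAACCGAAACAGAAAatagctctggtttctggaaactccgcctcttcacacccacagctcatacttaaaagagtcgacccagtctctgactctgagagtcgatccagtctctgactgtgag
Interferon-gamma and antigen presentation genes had a median of -0.52 over 19 genes and 0 passed, and -0.54 without untreated replicate 3.

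Lists of intestinal epithelial cells had uneven medians, and several moved when untreated replicate 3 was left out. Tuft cell genes had a median of -0.78 (0 of 13 passed), and -0.03 without untreated replicate 3. Markers of the small intestine had a median of -1.42 (0 of 13 passed), and -2.00 without that library. Of these markers, 0 were lower without overlap (8.05% of all genes) and 2 were higher (7.99%). Their sums overlapped, at 405, 497 and 448 CPM at day 13, against 441, 271 and 501 CPM untreated. In 1 of 16 alternatives their median was positive, at 0.19. Intestinal transcription factors had a median of 0.12 (0 of 15 passed), with 11 of 15 intervals within 2-fold, and 0.23 without untreated replicate 3. Elf3, a factor of differentiating epithelium, was at 801, 667 and 875 CPM at day 13, against 479, 529 and 537 CPM untreated (0.60 ± 0.20, adjusted p = 0.505), and did not overlap. Absorptive colonocyte genes had a median of 0.02 (0 of 20 passed), and 0.45 without untreated replicate 3. Aqp8, a water channel of surface colonocytes, was at 473, 635 and 550.1 CPM, against 245, 123 and 252 CPM (1.42 ± 0.47, adjusted p = 0.489). Slc20a1, a phosphate transporter, was at 768, 584 and 901 CPM, against 373, 318 and 115 CPM (1.48 ± 0.47, adjusted p = 0.471). Both sets of libraries were apart. Leaving out untreated replicate 3 gave 1.58 ± 0.56 for Aqp8 and 1.11 ± 0.46 for Slc20a1 (adjusted p = 0.484 and 0.614). Saa1, an acute-phase protein made by the epithelium, was at 1959, 1564 and 2164 CPM, against 1203, 984 and 352 CPM (1.16 ± 0.35, adjusted p = 0.410; 0.78 ± 0.27 without untreated replicate 3), without overlap, and the epithelial antimicrobial list had a median of 0.32 (0 of 15 passed; 0.60 without untreated replicate 3). Reg3b, a bactericidal lectin, shows how 1 library set a value: 0.279, 2.60 and 0 CPM at day 13, against 0.235, 1.07 and 1226 CPM untreated.

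Wnt signalling, the pathway of the deleted gene, showed no called change. Of 18 Wnt target and feedback genes, 0 passed, the median was -0.20 and 9 intervals lay within 2-fold. Axin2, named after its values were seen, was at 30.8, 24.04 and 22.2 CPM at day 13, against 26.7, 31.8 and 32.4 CPM untreated (-0.24 ± 0.18, 95% interval -0.61 to 0.14). Lgr5, a marker of crypt stem cells, was at 2.65, 5.07 and 5.78 CPM, against 5.67, 4.41 and 7.79 CPM (95% interval -1.87 to 1.07). Both overlapped. Of the 10 members of the destruction complex, 0 passed and all 10 intervals lay within 2-fold. Stem and progenitor genes had a median of -0.08 (0 of 15 passed).

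Metabolic lists had small medians as well. Oxidative phosphorylation genes had a median of -0.18, with all 19 intervals within 2-fold, and glycolysis and hypoxia genes 0.21, with 17 of 18 positive and 0 passed. Pkm, a glycolytic kinase, was at 1793, 1241 and 1315 CPM at day 13, against 1185, 1113 and 985 CPM untreated (0.41 ± 0.18, adjusted p = 0.626), without overlap. Hmox1, which degrades haem, was at 5.86, 2.47 and 3.77 CPM, against 16.8, 22.1 and 5.51 CPM (-1.88 ± 0.51, adjusted p = 0.362), and overlapped through untreated replicate 3, without which it was -2.28 ± 0.44 (adjusted p = 0.143). Egr1, an immediate early gene, was at 8.84, 14.6 and 5.19 CPM, against 43.1, 25.6 and 25.3 CPM (-1.72 ± 0.60, adjusted p = 0.514). Over all 38 lists, no tested member passed at day 13, the Y-linked genes and Xist included.

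**Figure D5:**
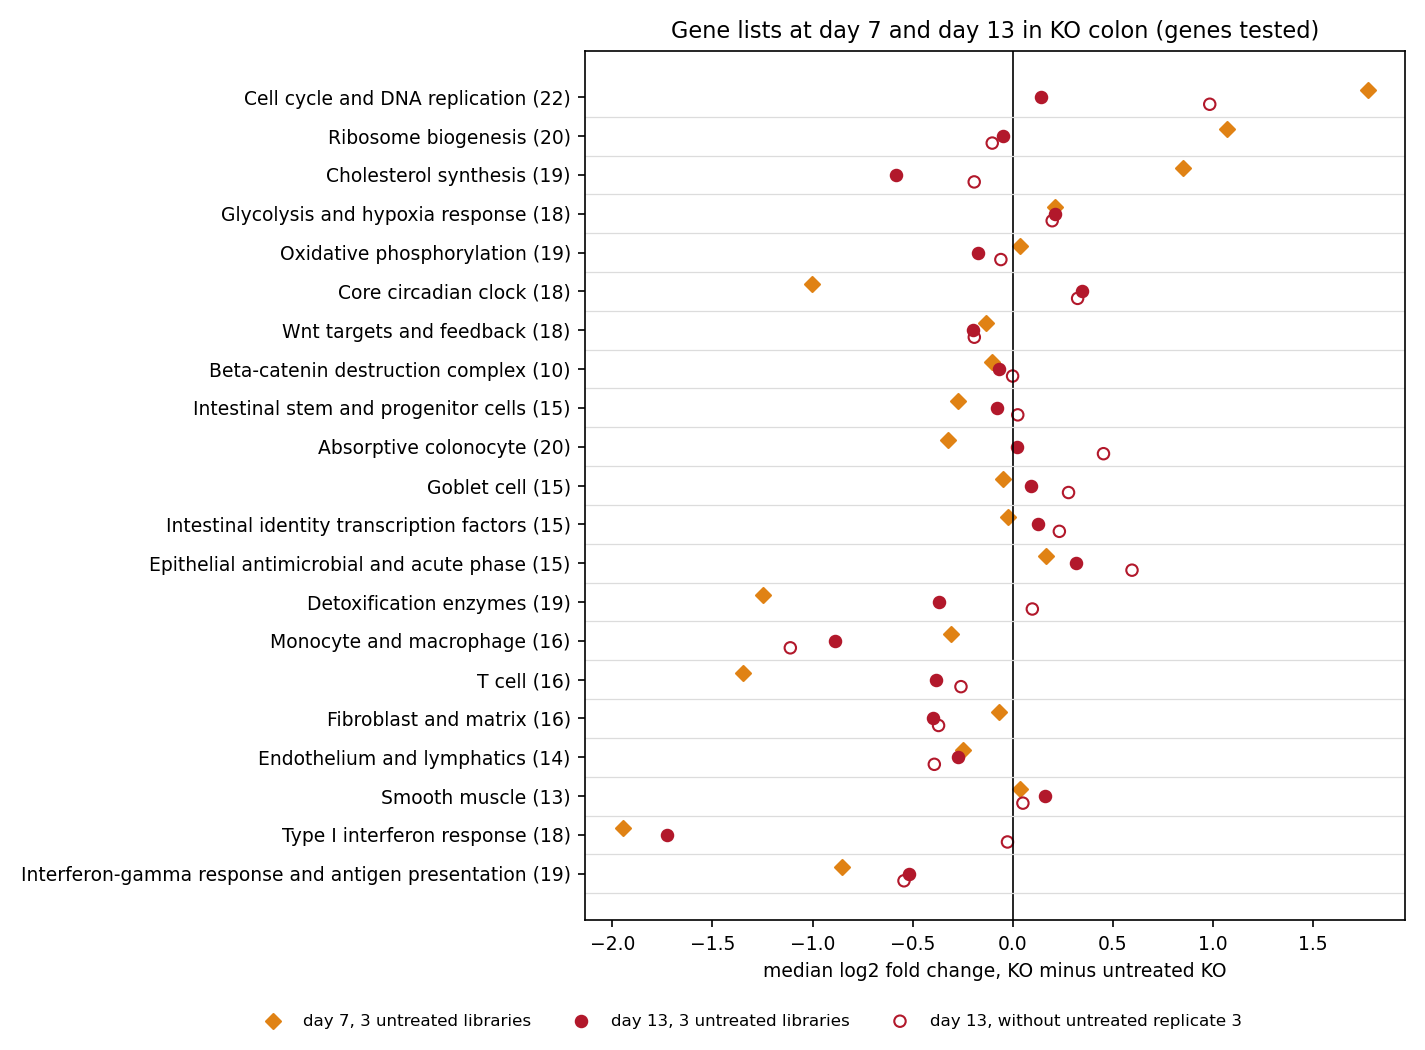
Median log2 fold change of the tested genes in 21 lists (number in brackets), KO minus untreated KO, at day 7 (orange) and day 13 (filled red), and at day 13 without untreated replicate 3 (open red). When that library is left out, the interferon median moves to -0.03 and the cell cycle median to 0.98, while the clock and Wnt medians stay at 0.32 and -0.19.

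The day 13 change was also compared between genotypes, as the difference of the KO and WT contrasts. In WT colon 767 genes passed at day 13 (4.24%), from 36 to 1620 when 1 WT library was left out, while the test of the difference itself called 2 of 18102 genes (0.0110%), and 0 to 410 when 1 library was left out, with 92 without untreated KO replicate 2 and 410 without WT day 13 replicate 2. Gzmb, granzyme B of cytotoxic lymphocytes, was at 0.186, 0.176 and 0.224 CPM in KO day 13 colon, against 1.02, 0.284 and 2.78 CPM in untreated KO, and at 6.41, 0.845 and 2.89 CPM in WT day 13 colon, against 0.0420, 0 and 0.0868 CPM in untreated WT. Gm45104, a predicted gene named after its values were seen, was at 17.0, 15.3 and 12.9 CPM in KO day 13, against 2.78, 2.49 and 0.722 CPM in untreated KO, and at 0.970, 1.01 and 2.10 CPM in WT day 13, against 5.30, 3.33 and 4.47 CPM in untreated WT. For both genes the day 13 libraries lay apart from the untreated ones in each genotype, in opposite directions. Gzmb was near the floor in KO day 13 and untreated WT colon. By edgeR the difference passed for both genes (adjusted p = 0.0491 for each), and each also passed under 7 of 20 alternatives. Il1b, the inflammatory cytokine, was at 0.698, 0.971 and 0.373 CPM in KO day 13, against 1.10, 0.782 and 0.418 CPM in untreated KO (-0.18 ± 0.91), and its change differed from that in WT by -7.55 ± 1.31 without passing (adjusted p = 0.0735).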

How the data were processed

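RNA of whole mouse colon was extracted with Trizol after a wash in PBS and sequenced on Illumina libraries, per the labels' protocols. The authors deposited 1 gene table per library with the RSEM expected count and TPM of 55487 genes, per the file headers. STAR 2.7.6a, RSEM 1.3.1 and GRCm38 are named in the submitters' processing notes. Which annotation was used and whether counting was stranded was not given in the sources used here. Of the expected counts, 11.0% to 12.4% were not whole in a library, since RSEM divides shared reads between genes. They were rounded to whole numbers. TPM as deposited by the authors was not used for tests. Symbols came from a separate list of gene names, which held 55141 of the IDs, and the other 346 held at most 0.0742% of counts. Gene positions are from GENCODE M21.

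The 18 colon libraries (6 groups of 3) were fitted together in edgeR 4.0.16 (R 4.3.3) with TMM scaling, the default filter on low counts (filterByExpr, 10 counts) and the robust quasi-likelihood test, with Benjamini-Hochberg adjustment over all genes tested and a threshold of 0.05. CPM are scaled by the TMM factors. Errors of log2 changes are standard errors, from the log2 change and the F statistic, and 95% intervals follow from them. The script was tested on simulated data. Alternatives were DESeq2 1.42.0, limma 3.58.1 voom, RLE factors, other filters, other sets of libraries and a covariate of Y-linked expression. Each library of the day 13 and untreated colon groups was also left out in turn. Day 7 libraries were not left out in turn. Leaving out KO day 13 replicate 1 and untreated KO replicate 3 together was chosen after seeing the data. Replicates came from separate samples per the design text, and no 2 libraries of a group were alike within sampling noise.

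The comparison, the gene lists and the rules were chosen with earlier results of these data known. Named genes are Axin1, the genes that passed, the genes with the smallest p up to 10 in a direction, up to 4 members of each list with the smallest p and, for the difference between genotypes, those with the smallest p, all without predicted or pseudogene names. Genes outside this rule are said to be so. Tumour libraries were used only in the alternative with all 24 libraries. Promoters (250 bases before to 50 after the start) are from RefSeq, GRCm38.p6.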

Additional observations from a re-analysis of the deposited data

Results flagged for a closer look

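The difference between the day 13 change in KO colon and that in WT colon passed for 2 genes. For Gzmb it was -8.93 ± 1.33 on the log2 scale (edgeR, adjusted p = 0.0491). Gzmb was lower at day 13 than untreated in KO and higher in WT, and the libraries did not overlap in either genotype. Values were near the floor in KO day 13 colon (0.176 to 0.224 CPM) and untreated WT colon (0 to 0.0868 CPM). The size of the difference is therefore uncertain. WT day 13 libraries ran from 0.845 to 6.41 CPM and untreated KO replicates from 0.284 to 2.78 CPM. For Gm45104 the difference was 4.60 ± 0.67 (edgeR, adjusted p = 0.0491), with all 3 KO day 13 libraries above untreated KO and all 3 WT day 13 libraries below untreated WT. With a covariate of Y-linked expression 0 genes passed by edgeR and 1593 had an unadjusted p under 0.05. DESeq2 called 575 genes and limma voom 2. The part of sex in these differences was not tested further, and it cannot be told apart from day 13 within KO.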

How the results depend on the processing

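Between day 13 and untreated KO colon, 0 genes passed with all 24 libraries (1431 at an unadjusted p under 0.05) and 0 with the covariate of Y-linked expression (877), 17 with only the 6 libraries compared, 13 with only the 9 KO colon libraries, 121 with DESeq2, 1 without KO day 13 replicate 1 and untreated KO replicate 3 together, and 0 to 4 with 1 library left out. RLE factors and limma voom gave 5 each. Igkv19-93 passed in 11 of 16 alternatives, Gm7887 in 8, Rdh9 in 7 and Adora1 in 6, and Zfp264 in 4 of 15. The difference between genotypes gave 59 calls with all 24 libraries, 0 with the covariate, 575 with DESeq2 and 0 to 410 with 1 library left out. Day 7 gave 1104 with the covariate, 1487 without a filter on low counts and 1426 to 2059 with 1 library left out, day 13 against day 7 gave 1358 to 2628 with 1 library left out, and WT day 13 gave 424 with the covariate, 1951 with DESeq2, 378 with limma voom, 508 without a filter and 36 to 1620 with 1 library left out. Of the genes defined in WT at day 7, the higher genes had a median of 0.17 with the covariate and 0.11 without both libraries (-0.10 to 0.12 with 1 left out). The lower genes had -0.051 and -0.11 (-0.14 to 0.15). No day 7 library was left out in turn, so the ranges with 1 library left out do not vary the day 7 libraries. The number of genes with an interval within 2-fold ran from 7901 to 11642. Of the values of single genes and lists, 2183 stayed on their side of the threshold or within the spread, 162 moved, 69 lost the call, 36 gained it, and 0 turned direction while called. The cause of these shifts was not tested, beyond the fewer libraries or genes that an alternative holds. No paired analysis was possible because the labels carry no replicate numbers. With 3 libraries a group the median SE of a log2 change was 0.27, and intervals cover the spread between these libraries only.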

Other observations

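Several of the genes with the smallest p between day 13 and untreated KO colon lay near the start of chromosome 7 in GRCm38, a region picked after these values were seen. Of 214 genes tested in the first 20 Mb, 31 had an unadjusted p under 0.05 (14.5%) and 55 did not overlap between the groups (25.7%), while 1 passed. On the rest of chromosome 7 the unadjusted share was 5.95% of 1194 genes and 14.1% did not overlap, and on the other chromosomes the shares were 7.66% and 16.1% of 16694. The genes included Zfp264, Gm45104, Apoc2, Igsf23 and the pseudogene Gm15931, which were higher at day 13, and Ccdc61, which was lower. Igsf23, an immunoglobulin superfamily member, was at 128, 54.3 and 54.0 CPM at day 13, against 22.0, 30.5 and 12.1 CPM in untreated KO colon (adjusted p = 0.108). Ccdc61, a coiled-coil protein, was at 10.8, 12.9 and 12.5 CPM, against 16.9, 19.3 and 19.7 CPM (adjusted p = 0.116). Neither gene overlapped between the groups. The medians of the signed log2 changes were -0.04 in the region, -0.0046 on the rest of the chromosome and -0.01 on the others. Over whole chromosomes the unadjusted shares above 10% were 12.6% on chromosome 3, 11.9% on chromosome 6, 10.97% on chromosome 12, and on Y 6 of 10 genes. Immunoglobulin genes count towards such shares, as with Igkv19-93 on chromosome 6. Of the kappa chain V genes tested, 39 of 54 were lower at an unadjusted p under 0.05, and of the heavy chain V genes 35 of 50 (4.05% of all genes). The Y share stands beside the Ddx3y values given above, which among the 6 libraries compared were high only in the untreated ones. The cause of the shares was not tested.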
